A study of Homo sapiens with 6 samples.

Results

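The collagen genes described here are 44 genes that encode collagen chains, out of 60617 gene identifiers counted in each tumor. They were chosen by family name and not by a cut on measured values, though with earlier results of these data known. All 44 were found by symbol, and 43 had at least 1 count in each of the 6 tumors, with COL23A1 listed at 0 in 1 of them. A filter on low counts kept 39 of them among the 20423 genes tested. RNA sequencing was done on tumors that the human melanoma line WM983-B, an established cell line, formed as xenografts. One group of 3 tumors came from hosts given anle138b systemically, a diphenyl-pyrazole compound that binds oligomers of alpha-synuclein, and the other group of 3 received no treatment. The titles of the samples also fall into a pair of naming sets: a 2-library set with 1 anle138b tumor and 1 untreated tumor (the tumors numbered 3), and a 4-library set with 2 tumors of each group (numbered 1 and 2). What the sets stand for, the host strain, the dose and the length of treatment are not given in the sources used here. Separate host animals are not stated in the labels, and the p-values below therefore reflect only how much these tumors differ, which may be technical.

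Collagens are secreted proteins in which chains wind around each other into a rope-like helix, and they form most of the fibrous framework of connective tissue. The fibrillar types build the tensile fibrils of the stroma, type IV builds the sheet of the basement membrane, beaded-filament and short-chain types form networks, fibril-associated types sit on the surface of fibrils, and transmembrane and multiplexin types are found at cell surfaces and in basement membranes. In solid tumors fibrillar collagens are mostly known as products of fibroblasts, and basement membrane collagens as products of blood vessel and tumor cells. Melanocytes come from the neural crest, and melanoma cells can themselves express collagen genes. A xenograft holds human tumor cells and mouse host cells, and collagen coding sequence is conserved between these species.

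The promoter windows of 5 genes are shown because they belong to the genes on which the comparisons turn. The first belongs to COL19A1, which was higher in anle138b tumors, the second to COL11A2, which was lower, and the third to COL9A1, the next gene downstream of COL19A1, which was counted almost only in the 2-library set. The last pair of windows covers the divergent starts of COL4A2 with COL4A1 and of COL4A5 with COL4A6. Each window holds 250 bases before and 50 bases after the RefSeq start of the gene (GRCh38.p14), written 5′ to 3′ on the strand of the gene. In the windows of COL19A1, COL9A1 and COL11A2 capitals mark motif matches. In the other windows they mark the bases that also belong to the window of the partner gene.
COL19A1 promoter (chr6:69866306-69866605, plus strand): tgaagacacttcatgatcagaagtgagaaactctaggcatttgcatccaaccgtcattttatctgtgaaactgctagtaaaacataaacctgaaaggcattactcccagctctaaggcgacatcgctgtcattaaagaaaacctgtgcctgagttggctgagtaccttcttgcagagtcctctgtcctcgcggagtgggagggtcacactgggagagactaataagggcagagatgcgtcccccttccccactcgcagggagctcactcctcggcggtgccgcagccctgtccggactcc
COL11A2 promoter (chr6:33193088-33193387, minus strand): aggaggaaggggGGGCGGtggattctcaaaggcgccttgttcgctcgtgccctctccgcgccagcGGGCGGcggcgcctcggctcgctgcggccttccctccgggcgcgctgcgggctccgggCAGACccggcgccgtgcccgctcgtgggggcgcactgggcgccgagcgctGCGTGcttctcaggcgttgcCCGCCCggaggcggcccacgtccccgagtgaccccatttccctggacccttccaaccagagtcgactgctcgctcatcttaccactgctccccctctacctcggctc
COL9A1 promoter (chr6:70303035-70303334, minus strand): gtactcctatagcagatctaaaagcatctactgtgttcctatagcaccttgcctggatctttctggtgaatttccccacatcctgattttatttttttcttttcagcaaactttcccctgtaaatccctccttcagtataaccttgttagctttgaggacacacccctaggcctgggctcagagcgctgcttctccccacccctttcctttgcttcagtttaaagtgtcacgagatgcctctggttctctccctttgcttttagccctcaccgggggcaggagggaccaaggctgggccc
COL4A2 promoter (chr13:110307034-110307333, plus strand): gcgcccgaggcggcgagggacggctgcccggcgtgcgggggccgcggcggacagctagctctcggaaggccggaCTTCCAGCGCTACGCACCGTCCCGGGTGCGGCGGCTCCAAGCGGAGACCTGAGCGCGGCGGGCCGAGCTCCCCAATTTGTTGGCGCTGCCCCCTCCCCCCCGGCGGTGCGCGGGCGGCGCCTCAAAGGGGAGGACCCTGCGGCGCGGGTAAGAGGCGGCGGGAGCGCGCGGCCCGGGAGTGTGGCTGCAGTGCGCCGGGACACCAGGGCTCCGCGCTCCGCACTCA
COL4A5 promoter (chrX:108439588-108439887, plus strand): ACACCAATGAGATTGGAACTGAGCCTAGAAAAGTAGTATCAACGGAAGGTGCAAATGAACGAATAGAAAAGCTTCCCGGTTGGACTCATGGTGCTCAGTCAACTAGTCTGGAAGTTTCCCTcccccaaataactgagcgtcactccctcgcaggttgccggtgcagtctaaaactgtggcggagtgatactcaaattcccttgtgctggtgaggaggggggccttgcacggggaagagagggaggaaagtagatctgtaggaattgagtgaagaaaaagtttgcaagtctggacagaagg
Both strands were searched for the TATA box (TATAAA), the CCAAT box (CCAAT), the GC box (GGGCGG), the core of the M-box used by melanocyte factors (CATGTG), an E-box (CACGTG), an AP-1 site (TGANTCA), the core bound by the aryl hydrocarbon receptor (GCGTG) and the SMAD box (CAGAC). The windows of COL19A1 and COL9A1 held none of these letters. The COL11A2 window held 3 GC boxes, 1 GCGTG and 1 CAGAC, none overlapping another, and its RefSeq start lies 638 bases from the start in GENCODE. Of 35116 promoter windows of the same length, 45.0% held a GC box, 36.5% a GCGTG and 45.3% a CAGAC. Among the 32 collagen genes with a RefSeq window the shares were 56.2%, 40.6% and 43.8%. CATGTG was found in 3.12% of the collagen windows and 11.1% of all windows, and TATAAA in 18.8% and 11.5%. CCAAT was found in 31.2% of the collagen windows and 34.6% of all windows, TGANTCA in 3.12% and 7.71%, and CACGTG in 0% and 7.26%. These matches are descriptions of letters and not of binding.

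Gene counts summed to 12400782 to 27599159 per tumor, with the 2 deepest tumors in the 2-library set. A level of 3 counts in a tumor stood for 0.106 to 0.24 CPM (TMM-scaled counts relative to library size). Melanoma markers were high in all 6 tumors, PMEL at 8281 to 13444 CPM. Between anle138b and untreated tumors 215 of 20423 genes differed (134 higher and 81 lower, edgeR quasi-likelihood test on treatment and naming set together, Benjamini-Hochberg adjusted p under 0.05), and between the naming sets 3157 differed.

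All 44 collagen genes together took 0.0829%, 0.0974% and 0.179% of the counts in the anle138b tumors, against 0.112%, 0.0828% and 0.156% in the untreated tumors. Per kilobase of exon, which allows genes to be compared with each other, COL3A1 was highest at a mean over the 6 tumors of 23.6 CPM per kb. COL1A1 (9.23), COL16A1 (9.20) and COL1A2 (8.72 CPM per kb) followed, and differed from each other by less than the spread of COL1A1 between tumors. COL6A1, COL9A3, COL12A1, COL19A1, COL5A2 and COL4A2 completed the 10 highest, between 6.61 and 7.86 CPM per kb. With the longest coding transcript in place of the exon union, a choice made after seeing the data, 9 of these 10 were again among the 10 highest. At the low end, COL26A1, COL21A1 and COL23A1 had fewer than 10 counts in each tumor.

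**Figure D1:**
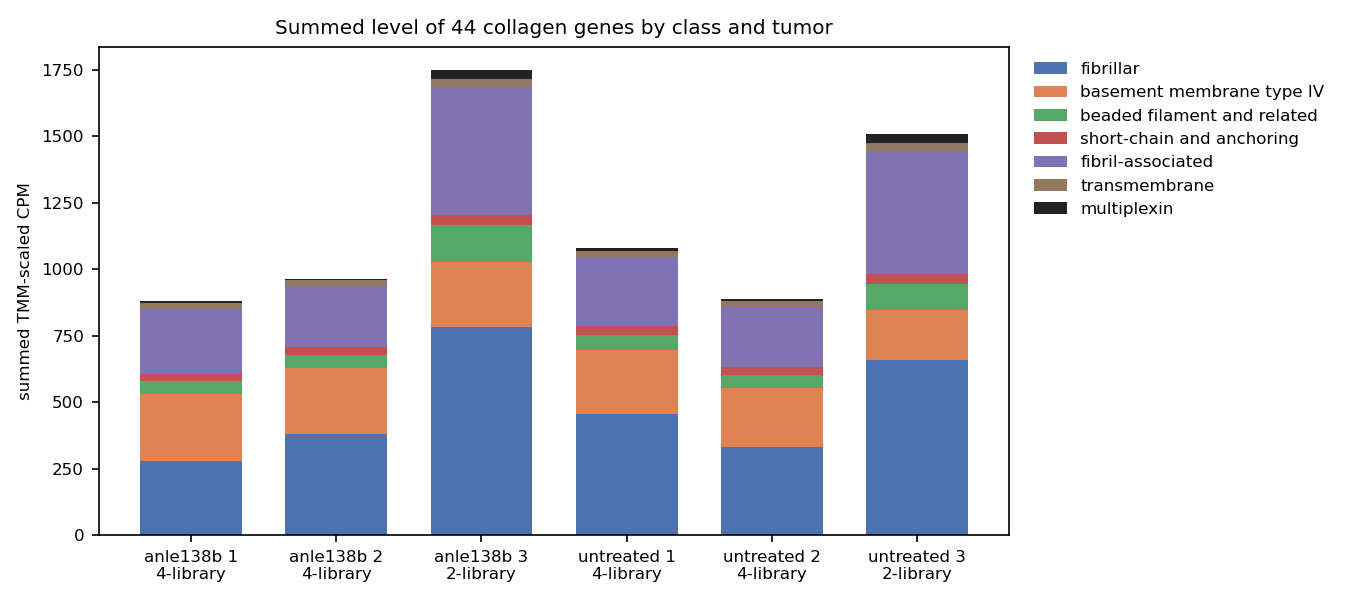
Summed TMM-scaled CPM of the 44 collagen genes in each tumor (vertical axis), split by collagen class (colors), for the 3 anle138b tumors on the left and the 3 untreated tumors on the right. The tumors of the 2-library set reach 1748 and 1509 CPM and the tumors of the 4-library set 879 to 1079 CPM.

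The summed collagen level overlapped between anle138b and untreated tumors, and 1 gene rose and 1 fell. The summed level of the 44 genes was 879, 965 and 1748 CPM in the anle138b tumors, against 1079, 887 and 1509 CPM in the untreated tumors. Each group thus held 1 high tumor, that of the 2-library set, and the groups overlapped. The mean was 1197 ± 479 CPM with anle138b and 1159 ± 319 CPM without (SD, n = 3 each; log2 ratio 0.01, exact two-sided permutation p = 1.0). Of the 39 tested collagen genes 2 passed the test, COL19A1 higher and COL11A2 lower. That is 5.13%, against 1.05% of all genes tested. By direction, 2.56% of the collagen genes were higher and 2.56% lower, against 0.656% and 0.397% of all genes. The median log2 fold change of the 39 was -0.08, against -0.01 for all genes tested, with 17 positive and 22 negative values. In bulk tumors, fewer cells of a type and less RNA per cell cannot be told apart.

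COL19A1, a fibril-associated chain of basement membrane zones that is also known from developing muscle and nervous tissue, was higher with anle138b. It lies on chromosome 6 at 69866571 to 70209976 on the plus strand (GRCh38). It had 66.1, 79.3 and 91.0 CPM in the anle138b tumors, against 31.4, 36.1 and 52.4 CPM in the untreated tumors. Every anle138b tumor lay above every untreated tumor. The log2 fold change was 1.0 ± 0.12 (SE, n = 3 per group; adjusted p = 0.00418). Leaving out each tumor in turn gave 0.89 to 1.12, with an adjusted p of up to 0.0312. In a fit without the naming set the value was 0.98 with an adjusted p of 0.373. Its exons overlap LMBRD1 on the other strand by 70 bases, 0.822% of its exon length. The library kit does not mark strand, so reads there cannot be assigned to either gene. LMBRD1, which encodes a lysosomal membrane protein, had a log2 fold change of 0.11 ± 0.11 and was not called.

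COL11A2, a fibrillar chain known from cartilage that joins COL11A1 in thin fibrils, was lower with anle138b. The gene lies on chromosome 6 at 33162681 to 33192499 on the minus strand, within the MHC region. It had 6.88, 5.83 and 29.7 CPM in the anle138b tumors, against 14.6, 16.3 and 59.1 CPM in the untreated tumors. In both sets the anle138b tumors lay below the untreated tumors, while over all 6 tumors the groups overlapped, since both tumors of the 2-library set were high. The log2 fold change was -1.16 ± 0.13 (SE, n = 3 per group; adjusted p = 0.00324). Leaving out each tumor in turn gave -1.28 to -1.07 with an adjusted p of up to 0.022, and without the naming set in the fit the value was -1.06 with an adjusted p of 1.0. At lower coordinates than COL11A2 lie class II genes that were higher with anle138b, among them HLA-DPB1, the beta chain of HLA-DP, 75479 bases away. BRD2, further along in that direction at 181175 bases, had a log2 fold change of -0.07 ± 0.10 and was not called. HLA-DPB1 had 19.3, 16.2 and 25.3 CPM in the anle138b tumors, against 0.731, 0.296 and 1.15 CPM in the untreated tumors (log2 fold change 4.75 ± 0.24, adjusted p = 3.01e-05). At higher coordinates RXRB, a retinoid X receptor gene 1088 bases away, had 0.03 ± 0.10 and was not called. SLC39A7, RING1 and HSD17B8, further along in that direction, had log2 fold changes of 0.11 ± 0.11, -0.04 ± 0.13 and -0.50 ± 0.15 and were not called. These neighbours were chosen for their position.

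**Figure D2:**
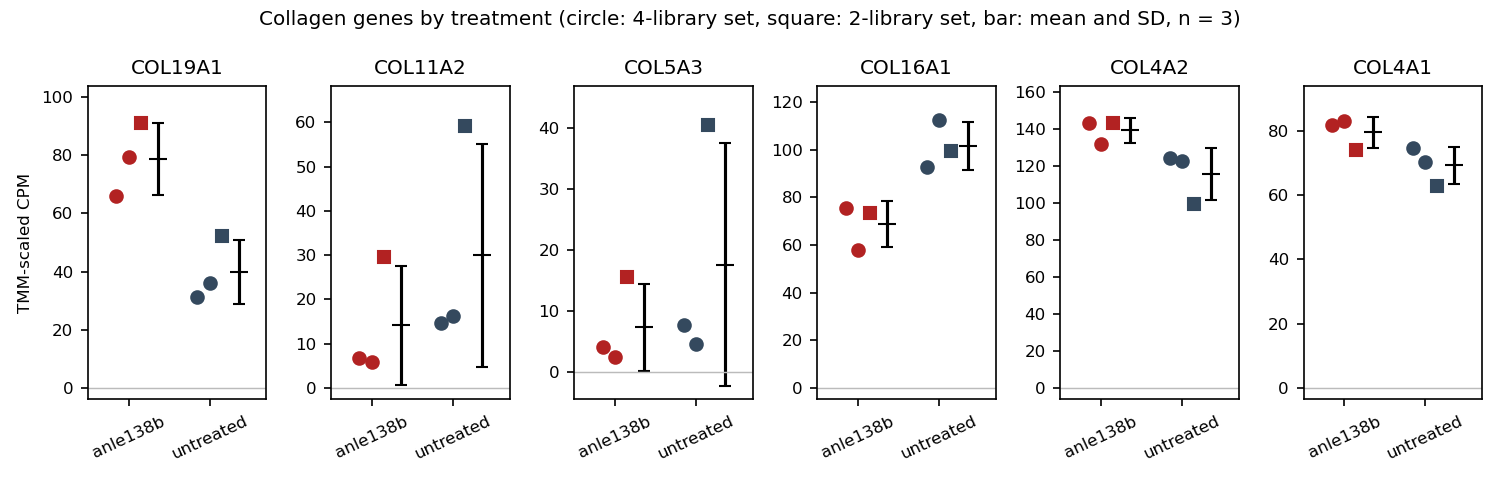
TMM-scaled CPM (vertical axes) of 6 collagen genes in anle138b tumors on the left of each panel and untreated tumors on the right. Points are tumors, circles from the 4-library set and squares from the 2-library set, and the bar is the mean with its SD (n = 3). For COL19A1 every anle138b tumor (66.1 to 91.0 CPM) lies above every untreated tumor (31.4 to 52.4 CPM).

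Next in order of p stood COL5A3 and COL16A1, which did not pass the test. COL5A3, a minor fibrillar chain of type V collagen, had 4.05, 2.56 and 15.6 CPM in the anle138b tumors, against 7.67, 4.67 and 40.4 CPM in the untreated tumors. In both sets its anle138b tumors lay below the untreated tumors, while over all 6 tumors the groups overlapped. The log2 fold change was -1.13 ± 0.23 with an adjusted p of 0.0596, and it passed the threshold in 8 of 16 alternative analyses, among them DESeq2, limma voom and library-size scaling, and without anle138b tumor 1, anle138b tumor 2 or untreated tumor 2. COL16A1, a fibril-associated chain made by fibroblasts and other cells, had 75.4, 57.9 and 73.7 CPM in the anle138b tumors, against 92.9, 113 and 99.4 CPM in the untreated tumors. Its groups did not overlap, the log2 fold change was -0.56 ± 0.13, and the adjusted p was 0.0913. It passed in 4 of 16 alternatives, upper-quartile scaling, library size alone, no filter and DESeq2. In 3 of the 39 genes (COL19A1 and COL4A2 higher, COL16A1 lower) the anle138b and untreated tumors did not overlap, which is 7.69%, against 8.5% of all genes tested.

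The type IV chains of the basement membrane gave no call. COL4A1, which pairs with COL4A2 in the common type IV network, had 81.6, 82.8 and 74.0 CPM in the anle138b tumors, against 74.5, 70.1 and 62.8 CPM in the untreated tumors (log2 fold change 0.20 ± 0.09, adjusted p = 0.585). COL4A2 had 143, 132 and 143 CPM in the anle138b tumors, against 125, 123 and 99.7 CPM in the untreated tumors (log2 fold change 0.28 ± 0.11, adjusted p = 0.45). In COL4A2 each anle138b tumor lay above each untreated tumor, and in COL4A1 the groups overlapped by the 2-library anle138b tumor. The 6 type IV genes summed to 252, 249 and 245 CPM with anle138b, against 239, 223 and 190.1 CPM in untreated tumors. The log2 ratio was 0.20 (exact two-sided permutation p = 0.1, the smallest that 3 against 3 allow). With library-size scaling it was 0.19 (exact permutation p = 0.2).

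The major fibrillar chains did not pass the test, and the groups overlapped. COL1A1 and COL1A2, the chains of type I collagen, had log2 fold changes of -0.02 ± 0.16 and 0.10 ± 0.24, and COL3A1, the chain of type III, -0.03 ± 0.21. COL2A1, the main cartilage collagen, had 1.91, 0.719 and 0.991 CPM in the anle138b tumors, against 2.497, 3.63 and 1.65 CPM in the untreated tumors (log2 fold change -1.03 ± 0.35, adjusted p = 0.336). Among the chains with larger estimates, COL18A1, the source of endostatin, had -0.76 ± 0.29 (adjusted p = 0.468), and COL9A2 had -0.58 ± 0.20 (adjusted p = 0.345). By class, 0 of 6 type IV, 0 of 5 beaded-filament, 0 of 4 short-chain and anchoring, 0 of 3 transmembrane and 0 of 2 multiplexin genes passed the edgeR test. Of all genes tested, 1.05% passed it. In all, 11 of the 39 genes (28.2%) had an unadjusted p under 0.05, against 8.49% of all genes tested. DESeq2 called 4 of the 39, against 2.44% of all genes it tested. Among the fibrillar genes 1 of 11 fell (COL11A2), and among the fibril-associated genes 1 of 8 rose (COL19A1).

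**Figure D3:**
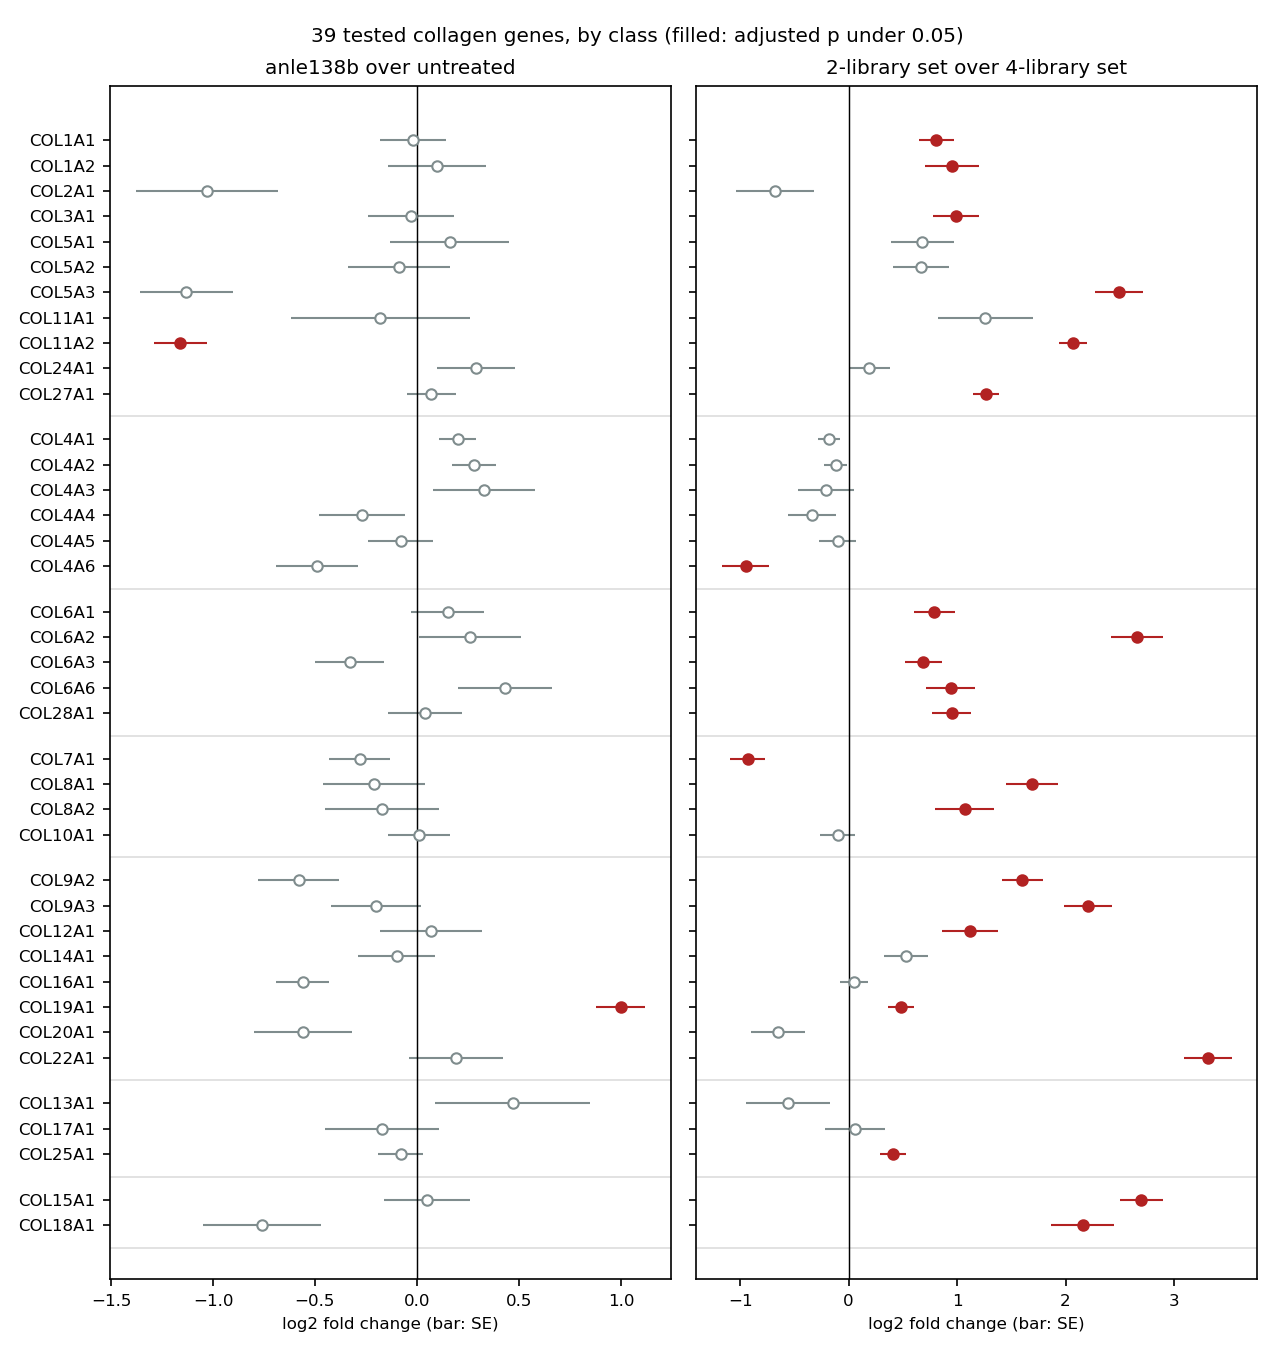
Log2 fold change with its SE (horizontal axes) of the 39 tested collagen genes, ordered by class, for anle138b over untreated tumors on the left and for the 2-library over the 4-library set on the right. Filled points have an adjusted p under 0.05, which holds for 2 genes on the left and 23 on the right.

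Many collagen genes differed between the naming sets, most of them higher in the 2-library set. Of the 39 genes 23 passed the test for the set (59.0%, against 15.5% of all genes tested). In the 2-library set 21 were higher (53.8%, against 8.32%) and 2 were lower (5.13%, against 7.14%). The median log2 fold change was 0.69, against -0.02 for all genes. The 21 and 2 held under each of the 3 other scalings. For all genes the split was 1699 higher and 1458 lower, and with library size alone it was 2244 and 1242. The sets did not overlap for 25 of the 39 genes, 64.1% against 38.3% of all genes tested. Of these, 21 were higher in the 2-library set (53.8%, against 19.0% of all genes) and 4 were lower (10.3%, against 19.4%). The summed level was 1.71-fold higher in the 2-library set (log2 ratio 0.77, exact two-sided permutation p = 0.0667, the smallest that 2 against 4 allow). The count of 23 was 14 (35.9%, against 11.7% of all genes tested) without anle138b tumor 3 and 16 (41.0%, against 4.76%) without untreated tumor 3, fits that leave 1 tumor in the 2-library set and assume that it varies like the others. Leaving out a tumor of the 4-library set moved the count in both directions. Without anle138b tumor 1 it was 16 of the same 39, with 10.1% of all genes called. Without untreated tumor 2 it was 20 (13.0% of all genes) and without untreated tumor 1 it was 22 (13.1%). Without anle138b tumor 2 it was 25 of the same 39, with 27.2% of all genes called.

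The major fibrillar chains were nearly 2-fold higher in the 2-library set. COL3A1 had 264 and 216 CPM in the 2-library set, against 79.5, 146, 145 and 113 CPM in the 4-library set (log2 fold change 0.99 ± 0.21, SE, n = 2 and 4; adjusted p = 0.0157). COL1A1 had 149.8 and 104 CPM in the 2-library set, against 62.3, 67.3, 82.1 and 78.8 CPM in the 4-library set (0.81 ± 0.16, adjusted p = 0.0123). COL1A2 had 174 and 114 CPM in the 2-library set, against 55.7, 83.6, 99.8 and 56.4 CPM in the 4-library set (0.95 ± 0.25, adjusted p = 0.0316). In each of these 3 genes both tumors of the 2-library set lay above the other 4. All 3 calls were lost when anle138b tumor 3 was left out, and the COL1A1 value was then 0.37. The call for COL1A2 was also lost with DESeq2 and without anle138b tumor 1. COL5A2, which joins type I fibrils as part of type V collagen, had 73.0 and 58.5 CPM in the 2-library set, against 36.5, 38.0, 63.0 and 28.7 CPM in the 4-library set, and COL5A1, its partner, had 19.2 and 10.3 CPM in the 2-library set, against 6.88, 9.50, 12.7 and 7.11 CPM in the 4-library set. Neither passed (0.67 ± 0.26 and 0.68 ± 0.29 on the log2 scale), and the sets overlapped. With 1 tumor left out the COL5A2 value ranged from 0.35 to 0.99 and the COL5A1 value from 0.05 to 1.25. COL5A2 passed in 2 of 15 alternatives, without a filter and without untreated tumor 1, and COL5A1 passed in these and without untreated tumor 3. COL5A3 rose by more, with 15.6 and 40.4 CPM in the 2-library set, against 4.05, 2.56, 7.67 and 4.67 CPM in the 4-library set (2.49 ± 0.22, adjusted p = 0.000115). COL11A2 rose as well (2.07 ± 0.13, adjusted p = 1.52e-05). COL27A1, a fibrillar chain known from cartilage and the developing eye, had 39.1 and 39.9 CPM in the 2-library set, against 15.9, 18.4, 16.2 and 15.04 CPM in the 4-library set (1.27 ± 0.12, adjusted p = 0.000146). Of the 11 fibrillar genes 6 were thus higher, and COL2A1, COL5A1, COL5A2, COL11A1 and COL24A1 did not pass. COL11A1 had the largest estimate among the genes that did not pass, 1.26 ± 0.44 (adjusted p = 0.0797), and its sets overlapped. It passed in 4 of 15 alternatives: limma voom, no filter, and without anle138b tumor 2 or untreated tumor 1.

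**Figure D4:**
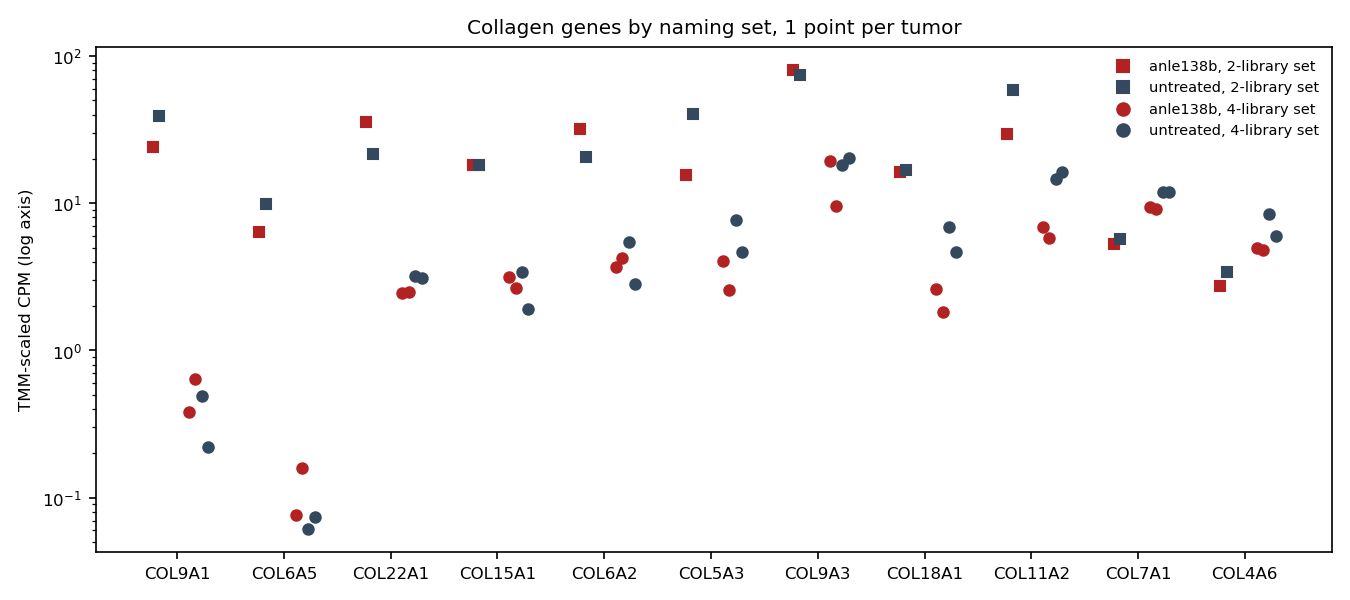
TMM-scaled CPM (log axis) of 11 collagen genes in each tumor, with the 2-library set (squares) on the left of each gene and the 4-library set (circles) on the right. COL9A1 lies at 24.1 and 39.1 CPM in the 2-library set and at 0.222 to 0.639 CPM in the 4-library set, while COL7A1 and COL4A6 lie lower in the 2-library set.

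Among the beaded-filament genes all 5 that were tested rose in the 2-library set. COL6A1 had 74.4 and 43.3 CPM in the 2-library set, against 32.1, 30.5, 37.4 and 34.4 CPM in the 4-library set (0.79 ± 0.19 on the log2 scale, adjusted p = 0.0227). COL6A2, which must join COL6A1 in type VI collagen, had 32.1 and 20.4 CPM in the 2-library set, against 3.67, 4.23, 5.48 and 2.81 CPM in the 4-library set (2.66 ± 0.24, adjusted p = 0.000126). COL6A3, the long chain of the common type VI molecule, had 6.37 and 8.65 CPM in the 2-library set, against 4.44, 3.99, 5.36 and 4.67 CPM in the 4-library set (0.69 ± 0.17, adjusted p = 0.0286). The sets did not overlap in any of these 3, and the difference was largest for COL6A2. COL6A6, which can take the place of COL6A3, had 11.5 and 6.87 CPM in the 2-library set, against 4.36, 5.75, 5.30 and 3.33 CPM in the 4-library set (0.94 ± 0.23, adjusted p = 0.0248). COL28A1, a related chain known from mouse peripheral nerve, had 8.70 and 9.16 CPM in the 2-library set, against 4.28, 5.35, 4.93 and 3.93 CPM in the 4-library set (0.95 ± 0.18, adjusted p = 0.00944). The call for COL6A3 was lost in 5 of the 6 fits that left out a tumor, each but that without anle138b tumor 2. That for COL6A1 was lost without anle138b tumor 1 or 3, that for COL6A6 without either of these or untreated tumor 3, and that for COL28A1 without untreated tumor 3.

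In the fibril-associated class 5 of 8 tested genes were higher in the 2-library set. COL22A1, a chain known from tissue junctions, showed the largest difference among the 39 tested genes in this fit, with 35.6 and 21.7 CPM in the 2-library set, against 2.45, 2.48, 3.23 and 3.11 CPM in the 4-library set (3.31 ± 0.22, adjusted p = 2.05e-05). COL9A3 had 80.3 and 74.4 CPM in the 2-library set, against 19.4, 9.58, 18.1 and 20.3 CPM in the 4-library set (2.21 ± 0.22, adjusted p = 0.000217), and COL9A2 had 13.2 and 15.8 CPM in the 2-library set, against 4.21, 2.88, 6.58 and 6.0 CPM in the 4-library set (1.60 ± 0.19, adjusted p = 0.000796). Both encode chains of type IX collagen, which coats cartilage fibrils. COL12A1, which links type I fibrils to the surrounding matrix, had 153 and 145 CPM in the 2-library set, against 69.7, 70.4, 95.1 and 38.3 CPM in the 4-library set (1.12 ± 0.26, adjusted p = 0.0205). That call was lost with DESeq2 and without either tumor of the 2-library set. COL19A1 was also higher, by 0.48 ± 0.12 (adjusted p = 0.0312), a call lost without anle138b tumor 1 or any of the untreated tumors. COL16A1 (0.05 ± 0.13), COL14A1 (0.53 ± 0.20) and COL20A1 (-0.65 ± 0.25) did not pass.

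The third type IX chain, COL9A1, did not enter the test, because the filter asked for a level of about 10 counts in at least 3 tumors. It had 680 and 922 counts in the 2-library set, against 5, 8, 8 and 3 counts in the 4-library set, or 24.1 and 39.1 CPM in the 2-library set, against 0.382, 0.639, 0.487 and 0.222 CPM in the 4-library set. COL6A5, another alternative chain of type VI collagen, had 179 and 233 counts in the 2-library set, against 1, 2, 1 and 1 counts in the 4-library set. Both genes were thus counted at appreciable levels only in the 2-library set, in anle138b and untreated tumors alike. These levels are a description with no test, since either gene can pass a filter on low counts only through the 2-library set. The COL9A1 gene lies on chromosome 6 at 70215061 to 70303083 on the minus strand, downstream of COL19A1. COL19A1 had 91.0 and 52.4 CPM in the 2-library set, against 66.1, 79.3, 31.4 and 36.1 CPM in the 4-library set, so it did not share the near absence of COL9A1.

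Type IV collagen did not rise in the 2-library set. The 6 genes summed to 245 and 190.1 CPM in the 2-library set, against 252, 249, 239 and 223 CPM in the 4-library set. The ratio was 0.903 (exact permutation p = 0.267). COL4A6, which pairs with COL4A5 in a network of skin and smooth muscle, was lower, with 2.76 and 3.44 CPM in the 2-library set, against 4.97, 4.79, 8.46 and 6.0 CPM in the 4-library set (-0.95 ± 0.22, adjusted p = 0.019). COL7A1, which forms the anchoring fibrils that tie skin basement membrane to the dermis, was the other lower gene, with 5.31 and 5.73 CPM in the 2-library set, against 9.48, 9.11, 12.0 and 11.9 CPM in the 4-library set (-0.93 ± 0.16, adjusted p = 0.00548). Both calls were lost without untreated tumor 3. The other 5 type IV genes lay between -0.34 and -0.10 on the log2 scale and did not pass.

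Of the short-chain genes, COL8A1 and COL8A2, which build the network under the corneal and vascular endothelium, were higher in the 2-library set. COL8A1 had 17.4 and 19.7 CPM in the 2-library set, against 4.05, 6.55, 8.16 and 4.22 CPM in the 4-library set (1.69 ± 0.24, adjusted p = 0.00203), and COL8A2 had 4.60 and 3.52 CPM in the 2-library set, against 1.30, 1.76, 2.25 and 2.52 CPM in the 4-library set (1.07 ± 0.27, adjusted p = 0.0304). COL10A1, known from hypertrophic cartilage, had 11.1 and 9.29 CPM in the 2-library set, against 11.2, 9.74, 11.8 and 11.1 CPM in the 4-library set and did not pass (-0.10 ± 0.16). The COL8A2 call was lost without anle138b tumor 1 or 3 or untreated tumor 1. Both multiplexins were higher. COL15A1, a basement membrane zone collagen, had 18.3 and 18.2 CPM in the 2-library set, against 3.14, 2.64, 3.41 and 1.93 CPM in the 4-library set (2.70 ± 0.20, adjusted p = 4.35e-05). COL18A1 had 16.3 and 16.9 CPM in the 2-library set, against 2.60, 1.84, 6.88 and 4.67 CPM in the 4-library set (2.16 ± 0.29, adjusted p = 0.00126). Their sum was 5.14-fold higher in the 2-library set. COL18A1 shares 1401 exon bases, 16.4% of its exon length, with SLC19A1 on the other strand, and reads there cannot be assigned. Of the transmembrane genes COL25A1, known from neurons, was higher with 24.8 and 28.0 CPM in the 2-library set, against 19.5, 19.9, 19.2 and 21.0 CPM in the 4-library set (0.41 ± 0.12, adjusted p = 0.042), a call lost in each fit that left out a tumor but that without anle138b tumor 2. COL13A1 and COL17A1, a hemidesmosome component, stayed under 2 CPM in each tumor and did not pass.

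Pairs of collagen chains, of which the type IV pairs lie head to head in the genome, did not always keep their ratio. COL4A2 over COL4A1, per kb, was 1.48 and 1.21 in the 2-library set and 1.21 to 1.34 in the 4-library set, so the sets overlapped. The RefSeq starts of this pair lie 127 bases apart, and their windows share 226 bases, of which 76.5% are G or C. In GENCODE the starts lie 1421 bases apart, and the COL4A2 start lies 1472 bases from that in RefSeq. COL4A5 over COL4A6 was 5.76 and 4.48 in the 2-library set and 2.41 to 3.78 in the 4-library set, without overlap. Their starts lie 380 bases apart and the shared 121 bases are 44.6% G or C. COL4A3 over COL4A4, chains of the kidney filter, ranged from 0.842 to 1.07 in the 2-library set and 0.624 to 1.33 in the 4-library set. COL6A1 over COL6A2, whose genes lie 93046 bases apart on the same strand, was 2.33 and 2.14 in the 2-library set, against 8.82, 7.27, 6.88 and 12.3 in the 4-library set. COL6A2 was thus closer to COL6A1 in the 2-library set, though lower in each of the 6 tumors. COL6A6 over COL6A5 was 1.8 and 0.686 in the 2-library set and 35.5 to 85.8 in the 4-library set, where COL6A5 had 1 or 2 counts in each tumor. COL1A1 over COL1A2 and COL3A1 over COL5A2 overlapped between the sets, at 0.915 to 1.59 and 2.39 to 4.32 over the 6 tumors. These ratios are descriptions with no test.

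**Figure D5:**
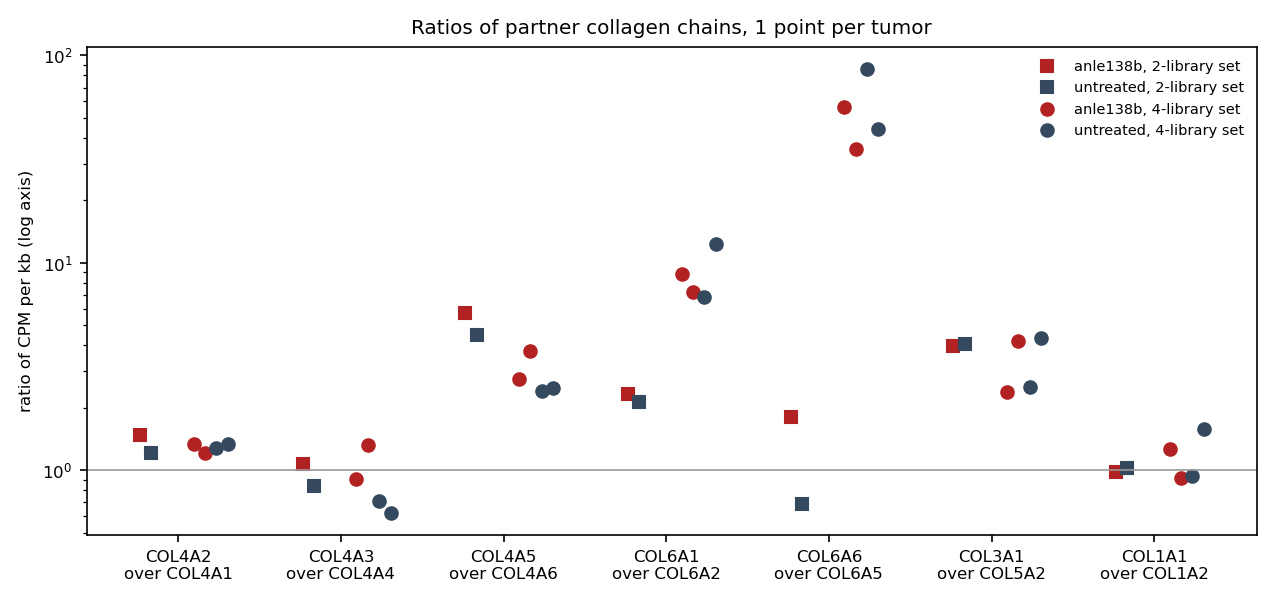
Ratio of the levels per kb (log axis) of 7 pairs of collagen chains in each tumor, with the 2-library set (squares) on the left of each pair and the 4-library set (circles) on the right. The grey line marks a ratio of 1. COL6A1 over COL6A2 is 2.14 and 2.33 in the 2-library set and 6.88 to 12.3 in the 4-library set.

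Untreated tumors 1 and 2, both of the 4-library set, also differed from each other. Of the 39 genes 29 were higher in untreated tumor 1 than in untreated tumor 2, 12 of them at least 1.5-fold and 0 lower by that fold. The 12 are 30.8%, against 9.22% of all genes tested, and 3.88% of all genes were lower by that fold (0.1 CPM added to each level). The 12 included COL12A1 (95.1 and 38.3 CPM), COL5A2 (63.0 and 28.7 CPM), COL1A2 (99.8 and 56.4 CPM) and COL11A1 (8.22 and 2.07 CPM). Between anle138b tumors 1 and 2, 3 genes (7.69%, against 5.95% of all genes) were at least 1.5-fold higher and 4 (10.3%, against 9.81%) lower in tumor 1, shares near those of all genes.

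Whether the treatment difference itself depended on the set was tested with an interaction term. It passed in 0 of the 39 genes with edgeR, DESeq2 and limma alike. Of all genes tested, 0 (0.0%) passed with edgeR, where 1345 had an unadjusted p under 0.05, 0 with limma, and 31 (0.158%) with DESeq2. The edgeR fit has 2 residual degrees of freedom, which the 4-library set alone supplies. Unadjusted, 5 of the 39 genes (12.8%, against 6.59% of all genes) had a p under 0.05.

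The enzymes, carriers and receptors that handle collagen gave few calls for treatment, as did all genes tested (1.05%). Of 21 tested genes for procollagen modification and folding 0 passed the edgeR test. P4HB, a subunit of prolyl hydroxylase, had 0.00 ± 0.12 on the log2 scale, and SERPINH1, the collagen chaperone HSP47, had 0.13 ± 0.11; both were chosen after their values were seen. Of 12 secretion and trimming genes, 11 collagen receptors and 5 breakdown genes 0 passed as well. MMP2, a gelatinase and the breakdown gene with the smallest p, had 58.7, 78.8 and 70.0 CPM in the anle138b tumors, against 52.2, 40.3 and 28.3 CPM in the untreated tumors (log2 fold change 0.82 ± 0.18, adjusted p = 0.0815). LOXL3, a lysyl oxidase that crosslinks collagen, was the 1 of 7 crosslinking genes that rose. It had 32.8, 27.4 and 64.7 CPM with anle138b, against 18.8, 18.3 and 26.9 CPM in untreated tumors (0.90 ± 0.14, adjusted p = 0.0182). Its call was lost without tumor 1 or tumor 3 of either group.

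LAMA5, a laminin chain of mature basement membranes, was the 1 of 15 partners of type IV collagen that fell, against 0.397% of all genes tested. LAMA5 had 23.2, 14.9 and 12.5 CPM with anle138b, against 49.8, 64.3 and 24.9 CPM in untreated tumors (-1.38 ± 0.19, adjusted p = 0.00933), and the groups did not overlap. In the TGF-beta pathway, a main inducer of collagen genes, 1 of 15 rose and 1 fell, against 0.656% and 0.397% of all genes tested. SMAD3, which carries the signal to the nucleus, had 67.0, 81.0 and 93.3 CPM with anle138b, against 39.9, 45.3 and 43.1 CPM in untreated tumors (0.91 ± 0.12, adjusted p = 0.00717). LTBP1, which stores latent TGF-beta in the matrix, had 30.2, 27.4 and 57.1 CPM with anle138b, against 39.8, 40.1 and 90.6 CPM in untreated tumors (-0.54 ± 0.10, adjusted p = 0.0398), a call lost in each fit that left out a tumor but that without anle138b tumor 2. SMAD3 and LAMA5 passed in each of the 6 fits that left out a tumor. Without the naming set in the fit none of LOXL3, LAMA5, SMAD3 and LTBP1 passed.

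Between the sets the same lists gave some calls, beside 8.32% of all genes tested higher and 7.14% lower in the 2-library set. Secretion and trimming genes gave 3 higher and 0 lower of 12. Among the 3 was ADAMTS14, a procollagen N-proteinase. It had 300 and 133 counts in the 2-library set, against 7, 3, 9 and 13 counts in the 4-library set. In CPM these were 10.6 and 5.64, against 0.535, 0.24, 0.548 and 0.963. ADAMTS14 passed the filter on low counts only through the 2-library set, so its levels are a description and its call carries that limit. ADAMTS2, the related enzyme for type I procollagen, was higher by 1.43 ± 0.23 (adjusted p = 0.00442). Modification and folding genes gave 1 higher (P3H3, 1.32 ± 0.18) and 2 lower (CRTAP, -0.49 ± 0.10, and PLOD1, -0.48 ± 0.12) of 21. Crosslinking genes gave 2 higher of 7 (LOXL3, 0.83 ± 0.14, and LOXL1, 0.79 ± 0.18). Collagen receptors gave 4 higher and 2 lower of 11, with ITGA1, the alpha 1 integrin chain, at 1.02 ± 0.13 and ADGRG1, an adhesion receptor for type III collagen, at -0.82 ± 0.13. Breakdown genes gave 0 higher and 1 lower of 5 (PEPD, which frees proline from collagen peptides, -0.66 ± 0.18). Basement membrane partners gave 5 higher and 1 lower of 15, with LAMA4 at 0.81 ± 0.09, and TGF-beta genes gave 4 higher and 0 lower of 15, with LTBP1 at 1.09 ± 0.10.

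Host cell markers were examined beside these differences. Over all genes tested, 1.05% passed for treatment, and 8.32% were higher and 7.14% lower in the 2-library set. Of 15 fibroblast and pericyte markers 12 were tested. Their summed level was 433, 365 and 590.4 CPM with anle138b, against 318, 353 and 372 CPM in untreated tumors. Most of this sum was LUM and CSPG4, the second of which is also a melanoma cell antigen. Without these 2 genes the sum was 62.0, 67.3 and 91.2 CPM with anle138b, against 70.9, 51.2 and 73.0 CPM in untreated tumors, and the groups overlapped. LUM, a proteoglycan of collagen fibrils, was the 1 of these that rose with anle138b (230.1, 201 and 223 CPM, against 138, 154 and 113 CPM in untreated tumors; 0.70 ± 0.12, adjusted p = 0.0249, and up to 0.174 with a tumor left out). Between the sets FBLN1 and CSPG4 were higher in the 2-library set, by 1.41 ± 0.25 and 0.89 ± 0.20. The sum was 590.4 and 372 CPM in the 2-library set, against 433, 365, 318 and 353 CPM in the 4-library set. Without LUM and CSPG4 it was 91.2 and 73.0 CPM in the 2-library set, against 62.0, 67.3, 70.9 and 51.2 CPM in the 4-library set. That sum still held PDPN, which was counted almost only in the 2-library set (counts below). Whether the sums of the sets stay apart without PDPN was not tested. Among all genes tested, 19.0% lay higher in both tumors of the 2-library set than in the other 4, and 19.4% lay lower. Of the 12 tested markers 6 (THY1, ACTA2, RGS5, CSPG4, FBLN1 and POSTN) lay higher in this way, and 0 lay lower. Among these, RGS5, a pericyte marker, had 3.50 and 4.24 CPM in the 2-library set, against 2.60, 2.32, 2.86 and 2.22 CPM in the 4-library set (0.62 ± 0.22, adjusted p = 0.0802), and POSTN, a matrix protein of activated fibroblasts, had 13.8 and 13.3 CPM in the 2-library set, against 5.51, 9.11, 11.1 and 4.15 CPM in the 4-library set (0.85 ± 0.31, adjusted p = 0.0962). DCN, a fibroblast proteoglycan, was at 8.28 and 9.25 CPM in the 2-library set, against 7.04, 8.87, 6.76 and 8.67 CPM in the 4-library set. TCF21, another of the 15 listed markers, was at 0 in all 6 tumors, and PDPN had 283 and 152 counts in the 2-library set, against 0, 0, 0 and 1 counts in the 4-library set. THY1, ACTA2, POSTN, DCN, TCF21 and PDPN were chosen after their values were seen.

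Endothelial markers, of which 7 of 10 were tested, gave 0 calls for treatment, against 1.05% of all genes tested. In the 2-library set 1 was higher (KDR, against 8.32% of all genes) and 1 lower (TIE1, against 7.14%). The sum of the 10 endothelial markers ranged from 34.5 to 37.1 CPM with anle138b and from 38.3 to 44.8 CPM in untreated tumors. The median log2 fold change of the 7 tested went the other way, at 0.16 for anle138b over untreated. Myeloid markers gave 0 calls for treatment and 1 higher (ITGAM) of 5 in the 2-library set. Skeletal muscle markers gave 0 calls for treatment and 3 lower of 5 in the 2-library set, MYH4 at -1.43 ± 0.19, MYH1 at -1.49 ± 0.23 and MYH2 at -1.29 ± 0.22. Melanoma markers gave 0 calls of 10 for treatment, and 3 higher in the 2-library set, S100B, TYRP1 and MLANA. How reads of the mouse host were handled is not given in the sources used here. The part of host cells, of mouse reads and of sequencing depth in the collagen differences was not tested, and for the sets they cannot be told apart from whatever the sets stand for.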

How the data were processed

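The labels' protocols give TRIzol extraction and the TruSeq RNA v2 kit, which is not stranded. For each tumor the authors deposited a table of raw counts by gene. The submitters' processing notes name bcl2fastq 2.17.1.14, STAR 2.5.2a, featureCounts 1.5.0-p1 and the build hg38. The annotation, the counting settings and the handling of mouse reads are not given in the sources used here, and conserved or overlapping genes may share reads.

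Counts were tested in edgeR 4.0.16 (R 4.3.3). The filter was filterByExpr on treatment groups (minimum count 10, minimum total 15), the scaling TMM, and the test the quasi-likelihood F test on a model of treatment plus naming set with 3 residual degrees of freedom, adjusted by Benjamini-Hochberg over all 20423 genes at 0.05. The biological coefficient of variation was 12.8%. Fold changes are anle138b over untreated and 2-library over 4-library set. Levels are TMM-scaled CPM, and exon lengths and positions come from GENCODE 29, to which 58542 of 60617 identifiers matched. Promoter windows come from RefSeq. Summed levels were compared on log2 values by exact permutation over tumors. Groups come from the treatment label and naming sets from the titles, and replicate numbers follow listing order. Replicates differed by more than sampling noise (chi-square per degree of freedom 10.5 to 58.8). Reads carry no molecular identifiers, so 3-count floors cover counting error only.

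The test was checked on simulated data. The alternatives were other scalings, filters, DESeq2 1.42.0, limma 3.58.1 voom, designs and left-out tumors. The members, the lists and the rule for naming genes were chosen with earlier results of these data known. The rule named collagen genes called in either comparison, those in neighbouring pairs and the 10 highest per kb. From each other list it took genes called for treatment and up to 3 with the smallest p in each comparison. Collagen genes and markers outside the rule are named for completeness.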

Additional observations from a re-analysis of the deposited data

Results flagged for a closer look

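In 4 of the 39 tested collagen genes (10.3%, against 16.0% of all genes tested) the anle138b tumors lay on opposite sides of the untreated tumors in the sets: every anle138b tumor was higher in the 2-library set, and every one was lower in the 4-library set. The difference between the sets was tested as an interaction in edgeR, and it did not pass for any of the 4. COL1A1 had a treatment difference of 0.53 on the log2 scale in the 2-library set and -0.31 in the 4-library set, an interaction of 0.84 (unadjusted p = 0.002, adjusted p = 0.522). For COL6A1 the values were 0.78 and -0.20, with an interaction of 0.98 (unadjusted p = 0.000993, adjusted p = 0.398). COL8A2 had 0.39 and -0.66, with an interaction of 1.02 (unadjusted p = 0.0591, adjusted p = 0.749). For COL22A1 they were 0.71 and -0.36, with an interaction of 1.08 (unadjusted p = 0.00579, adjusted p = 0.643). The 2-library set holds 1 tumor of each group, so its difference has no replicate check.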

How the results depend on the processing

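No paired analysis was possible because the replicate numbers follow the listing order and the labels name no partner for any tumor. For treatment, the 2 collagen calls became 4 with upper-quartile scaling, 4 with library size alone, 4 with DESeq2, 6 without a low-count filter and 0 without the naming set in the fit; leaving out 1 tumor gave 2 to 3. All genes called, 215, became 754 without a filter, 412 with DESeq2, 92 in the 4-library set alone and 9 without the set term (800 at an unadjusted p under 0.05), and 89 to 392 with 1 tumor left out. For the sets, the 23 collagen calls ranged from 14 to 27 with 1 tumor left out (the 27 are of 41 tested and hold COL9A1 and COL6A5), and all genes called, 3157, from 993 to 5960, and became 6250 without a filter. Interaction calls were 0, and 31 with DESeq2. No called direction was reversed in the alternatives run, and 63 uncalled values changed sign. Of single-gene values 1264 kept their side of the threshold, 63 lost a call and 25 gained one. The causes were not tested. The 3 tumors per group, and 1 per group in the 2-library set, limit what could be detected, and 3 collagen genes had under 10 counts in each tumor.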
